A study of Mus musculus with 2 samples.

Results

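Striated muscle genes were followed in whole ureters of mouse embryos, a tissue whose own muscle is smooth, to gauge how much skeletal muscle RNA each sample carried. The 32 genes were chosen by name, with earlier results of these data known. They comprise the myogenic transcription factors, the sarcomere, its calcium release machinery, muscle creatine kinase and the neuromuscular junction. They are 32 of the 30011 genes on the array and have 49 of its 39429 probes. Each probe is printed as 4 spots. It was counted as measured if, on both arrays, 2 or more of the spots passed the scanner's background test in the red or the green channel. By that rule 31 of the 32 genes were measured, as were 20495 genes in all. Myf5, which acts early in muscle commitment, was the exception, with 0 of 4 spots well above background in every channel.

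The study compared ureters at E14.5 that lacked Rbpj in the Tbx18 lineage with control ureters, on 2 arrays of 2 colours. RBPJ is the DNA-binding protein through which Notch receptors act. The conditional mutants, Rbpj-cKO, had the genotype Tbx18(cre/+);Rbpj(fl/fl), so that the recombinase was expressed from the Tbx18 locus, which is active in the mesenchyme that gives the ureter's coat. The controls were Rbpj(fl/?), in which the other Rbpj allele is not specified and no Cre allele is listed. All embryos were of the NMRI strain. Replicate 1 paired RNA of male embryos, with Rbpj-cKO in the red dye (AlexaFluor647) and control in the green dye (AlexaFluor555). Replicate 2 paired RNA of female embryos with the dyes exchanged, so the control was red and Rbpj-cKO green. Sex, dye orientation and array therefore changed together and cannot be told apart. The number of embryos pooled for a channel is not stated in the labels. Any p-value below combines the spread between these 2 arrays with a variance drawn from all genes.

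Skeletal muscle forms from precursors that express PAX7 and are committed by the factors MYOD1, MYF5, MYF6 and MYOG, which bind E-boxes next to muscle genes. Committed cells fuse into fibres and switch on the sarcomere, in which thin filaments of actin with troponin and nebulin slide along thick filaments of myosin between Z-discs. At mid-gestation the fibres hold embryonic and perinatal myosin, and the acetylcholine receptor is assembled at nascent neuromuscular junctions. Smooth muscle of the ureter uses mainly other actin and myosin genes and no troponin, and it develops under MYOCD and not under MYOD1.

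The promoters of 3 members are shown, for the factor that starts fibre differentiation (Myog) and for a thin and a thick filament gene whose arrays differed widely (Acta1 and Myh3). Each line is the 250 bases before the start of the gene in RefSeq's annotation of mouse build GRCm38.p6, read 5′ to 3′ on the gene's strand. Capitals mark E-boxes (CANNTG, the letters that myogenic factors bind), MEF2 motifs and CArG boxes, where present. The MEF2 motif was taken as YTAWWWWTAR and the CArG box as CCWWWWWWGG (Y is C or T, W is A or T, R is A or G). Near matches were neither marked nor counted, such as ctatatttat in Myog, which departs from YTAWWWWTAR in its last base. Myog lies at chr1:134289754-134290003 on the plus strand, Acta1 at chr8:123894776-123895025 on the minus strand and Myh3 at chr11:67078050-67078299 on the plus strand.
Myog: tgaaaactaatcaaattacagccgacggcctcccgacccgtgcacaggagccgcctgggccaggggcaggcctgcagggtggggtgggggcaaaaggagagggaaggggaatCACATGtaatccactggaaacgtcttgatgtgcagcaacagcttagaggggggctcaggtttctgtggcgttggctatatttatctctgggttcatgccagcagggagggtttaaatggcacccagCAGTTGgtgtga
Acta1: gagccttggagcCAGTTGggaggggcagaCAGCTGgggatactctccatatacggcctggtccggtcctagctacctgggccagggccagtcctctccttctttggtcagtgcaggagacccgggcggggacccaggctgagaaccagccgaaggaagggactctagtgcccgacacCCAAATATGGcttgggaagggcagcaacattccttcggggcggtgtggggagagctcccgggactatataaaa
Myh3: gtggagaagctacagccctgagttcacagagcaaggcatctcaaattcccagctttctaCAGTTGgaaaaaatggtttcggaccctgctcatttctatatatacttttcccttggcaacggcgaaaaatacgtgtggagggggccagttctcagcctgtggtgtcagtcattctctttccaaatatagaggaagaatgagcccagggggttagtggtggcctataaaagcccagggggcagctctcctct
Myog held 2 E-boxes, Acta1 had 2 E-boxes and 1 CArG box, and Myh3 had 1 E-box. Of the 32 members 26 had a promoter in the RefSeq table, with 29 promoters among them, and the motifs were searched on both strands. An E-box lay in 75.9% of the members' promoters, against 66.2% of all 32841 promoters of that length. Its form CAGCTG lay in 12 of the 29, or 41.4%, against 13% of all. MEF2 motifs, bound by the MEF2 partners of the myogenic factors, lay in 10.3% against 2.92%, and CArG boxes, bound by serum response factor, in 13.8% against 1.47%. Some genes have overlapping windows that count a site more than once, and by gene CAGCTG lay in 11 of 26, MEF2 motifs in 3 and CArG boxes in 3. CAGCTG and CArG were added after the E-box and MEF2 counts had been seen, and any CAGCTG is also an E-box. A match is a run of letters and not a measured binding site.

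The targeted gene, Rbpj, was lower in both mutant samples. Its normalized log2 intensity was 11.34 in male Rbpj-cKO against 12.46 in male control, and 11.43 in female Rbpj-cKO against 12.06 in female control. The log2 ratios of Rbpj-cKO over control were -1.13 and -0.63 (mean -0.88 ± 0.35 SD, n = 2, adjusted p = 0.776, limma). Of markers of the labelled tissue, 12 of 12 urothelial, 10 of 10 ureteric mesenchyme and 14 of 15 smooth muscle genes were measured. Upk1b, Upk3a, Tbx18, Ptch1, Sox9 and Acta2 had all 4 spots above background in all 4 channels. Upk2, another urothelial gene, had 2, 2, 4 and 3 such spots in male Rbpj-cKO, male control, female Rbpj-cKO and female control. The smooth muscle myosin Myh11 was near background, with 3, 4, 1 and 2 spots in male Rbpj-cKO, male control, female Rbpj-cKO and female control, and Lmod1 had 0 in each. Between 67.7% and 70.1% of the spots of a channel were well above background. Across all measured genes the 2 arrays ran opposite ways, with r = -0.352 and rho = -0.473 between their log2 ratios of Rbpj-cKO over control. Results are therefore also given as red over green, in which replicate 2 keeps its sign.

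The striated muscle genes were higher in Rbpj-cKO than in control in the male pair and lower in Rbpj-cKO in the female pair. The median log2 ratio of Rbpj-cKO over control was 0.60 on replicate 1 and -1.01 on replicate 2 over the 31 measured members, where that of all genes was 0.0012 and 0.0046. Of the 31 members, 30 were higher on the male array and lower on the female array with loess normalization, as were 34.3% of all genes. With median centring that count was 26, since Chrng, Musk, Mylpf and Myf6 turned sign on 1 array or both, and with the scanner software's processed signals, the authors' table or a smaller offset it was 29, without Mylpf. The remaining member, Pax7, was lower in Rbpj-cKO on both. No member was at least 1.5-fold different the same way on both arrays, against 0.195% of all genes.

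**Figure D1:**
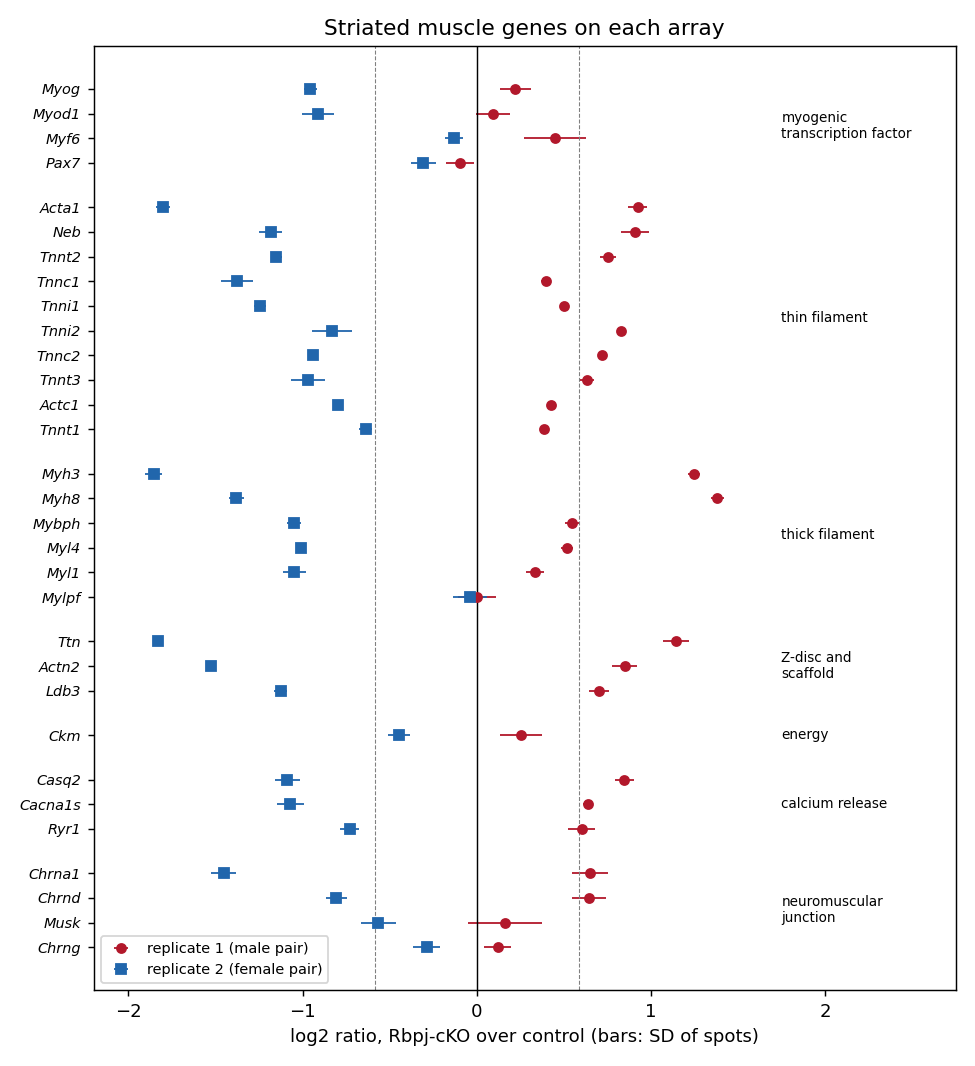
Log2 ratio of Rbpj-cKO over control (horizontal) for each of the 31 measured striated muscle genes, grouped by role, with circles for the male array (replicate 1), squares for the female array (replicate 2), bars for the SD of the spots and dashed lines at 1.5-fold. With loess normalization every square lies left of 0 and every circle but that of Pax7 lies right of it (Chrng, Musk, Mylpf and Myf6 turned sign with median centring), and the widest gaps are those of Myh3, Ttn, Myh8 and Acta1.

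By the brightest probe of each gene and at 1.5-fold or more, 16 members were higher in male Rbpj-cKO, against 1.4% of all genes. Likewise 25 were lower in female Rbpj-cKO, against 1.88%. Both held for the same 16 members, and for 129 genes in all, or 0.629%. A large part of those 129 genes shared a probe feature. The probes of 77 of them held 5 or more GT units in a row. Only 121 of all 20495 genes had such a probe, so 0 among the members' 49 probes does not set the members apart. Those 121 genes too were higher in red on both arrays, with medians of 0.75 in the male and -0.62 in the female pair. Leaving them out was chosen after seeing the data. Without them 52 of 20374 genes, or 0.255%, met the 1.5-fold rule in opposite directions, and 16 of the 52 were striated muscle members.

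Neither comparison called a gene. For Rbpj-cKO over control, limma called 0 of 20495 genes at adjusted p under 0.05, 0% of them, and 372 (1.82%) had an unadjusted p under 0.05, none of them a member. The members' median of the mean ratio was -0.20, and their adjusted p rounded to 1 throughout. For red over green, limma also called 0 genes, and 4314 (21%) had an unadjusted p under 0.05. Red was higher at that level in 2340 genes (11.4%) and in 24 of the 31 members, whose adjusted p ran from 0.205 to 0.846. Ordered by red over green, 5 of the first 10 and 13 of the first 40 of all genes were members.

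**Figure D2:**
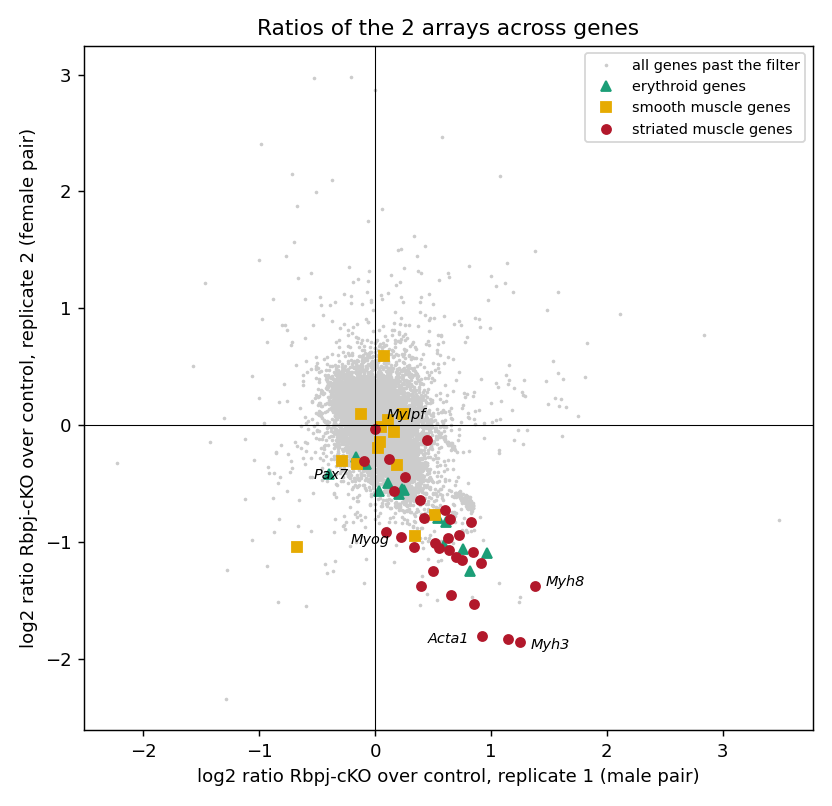
Log2 ratio of Rbpj-cKO over control on the female array (vertical) against the male array (horizontal) for all 20495 measured genes in grey, with striated muscle members as circles, erythroid genes as triangles and smooth muscle genes as squares. The members lie towards the lower right, 30 of them higher in the male and lower in the female mutant (26 with median centring), and the grey points at least 1.5-fold towards that corner include the 77 genes whose probes hold GT runs.

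Female control had the highest normalized intensity in 28 of the 31, against 26.5% of all genes, and female Rbpj-cKO the lowest in 19, against 28.3%. Both red channels, male Rbpj-cKO and female control, were above both green channels in 29 of 31 members, against 24.6% of all genes. Myf6, Ckm and Chrng passed the filter through the red channels alone, which fixed that order for them. With loess normalization, among the 26 members with all 4 spots above background in every channel, all 26 had the opposite signs and both red channels on top. Levels of the same genotype also differed between the arrays, in channels that differ in sex, dye and array at once. Together these differences restate the gap between the arrays' ratios, so they are no separate result. Female control was above male control in 31 of 31 members (all genes 47.6%), by a median of 0.99 on the log2 scale. Female Rbpj-cKO was below male Rbpj-cKO in 29 of 31 (all genes 50.1%), with a median difference of -0.55. For all genes these medians were -0.0094 and -0.00017. In RNA of a whole organ, fewer muscle cells and less muscle RNA per cell cannot be told apart.

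**Figure D3:**
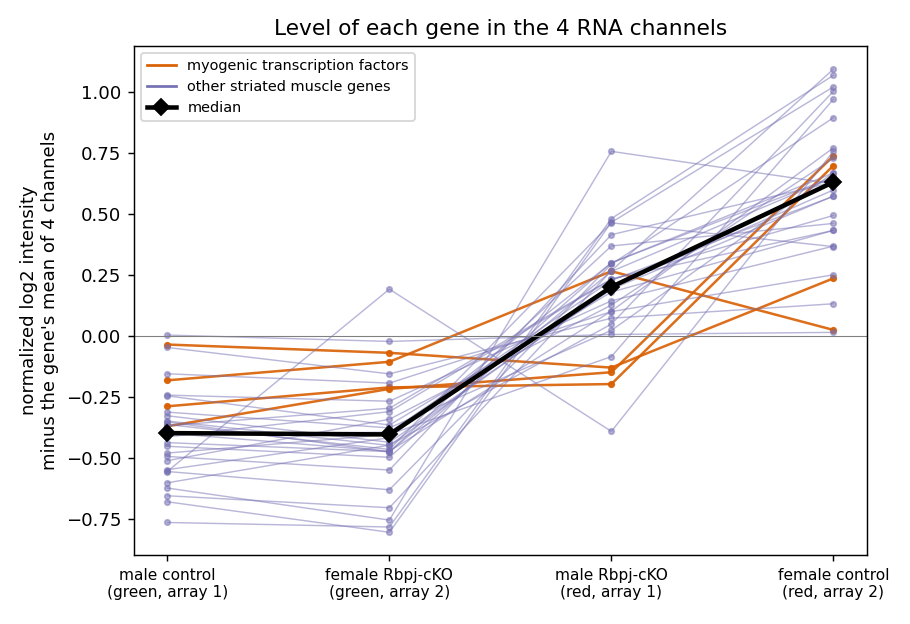
Normalized log2 intensity of each of the 31 measured members minus that gene's own mean over the 4 channels (vertical), by channel (horizontal, the green channels first), with a line for each gene, orange for transcription factors, and diamonds for the median. Most genes are low in both green channels and highest in female control, while Musk is low in both male channels and Mylpf is nearly level.

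Among the myogenic transcription factors, Myog and Myod1 were high in female control alone. Myog, which drives the differentiation of committed myoblasts, had normalized log2 intensities of 10.12 in male Rbpj-cKO, 9.90 in male control, 10.06 in female Rbpj-cKO and 11.01 in female control. Myod1, which commits cells to the muscle lineage, had 7.85, 7.75, 7.83 and 8.74 in the same order. The other 3 channels lay close together in both genes. Their log2 ratios were accordingly small on the male array (0.22 and 0.09) and larger and negative on the female one (-0.96 for Myog and -0.91 for Myod1). Myf6, a factor of late differentiation, had 0.45 and -0.13. Pax7, the marker of muscle stem cells, had -0.09 and -0.31 and was 6.78, 6.88, 6.84 and 7.15 in the 4 channels. The median of the 4 measured factors was 0.16 on replicate 1 and -0.61 on replicate 2.

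By the brightest probe, all 10 thin filament genes were higher in the male and lower in the female mutant. In the latter 10 of 10 were at least 1.5-fold lower, although a second Tnnt1 probe had log2 ratios of 0.11 and -0.48. Acta1, the skeletal actin, had normalized log2 intensities of 11.19 in male Rbpj-cKO, 10.27 in male control, 10.22 in female Rbpj-cKO and 12.02 in female control. It was 1.90-fold higher in the male mutant and 3.48-fold lower in the female mutant (red over green 1.36 ± 0.62 SD, n = 2, adjusted p = 0.210, limma). The green channels of Acta1 were nearly level, and female control exceeded male Rbpj-cKO. Neb, the ruler of the thin filament, had 9.46, 8.55, 8.49 and 9.67, with log2 ratios of 0.91 and -1.18. A second, dimmer Neb probe had 0.66 and -1.79, and another was below the filter. Actc1, the cardiac actin that embryonic skeletal muscle also uses, had 0.43 and -0.80. It was the brightest member, at 15.01, 14.58, 14.46 and 15.26 in the same order of channels.

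Troponins, which make the thin filament respond to calcium and which smooth muscle lacks, were higher in the male and lower in the female mutant in both slow and fast forms. The slow forms Tnnt1, Tnni1 and Tnnc1 had 0.39, 0.50 and 0.40 on replicate 1 and -0.64, -1.25 and -1.38 on replicate 2. The fast forms Tnnt3, Tnni2 and Tnnc2 had 0.63, 0.83 and 0.72, then -0.97, -0.83 and -0.94. A second, dimmer Tnnt3 probe had 0.79 and -0.67. The fast forms had the larger ratio on the male array in each of the 3 pairs, a contrast seen in these values and not tested. On the female array the slow Tnni1 and Tnnc1 fell further than Tnni2 and Tnnc2, and only Tnnt3 fell further than its slow form. Tnnt2, the cardiac form present in immature skeletal muscle, had intensities of 10.79 in male Rbpj-cKO, 10.04 in male control, 9.99 in female Rbpj-cKO and 11.14 in female control. Its ratios were 0.75 and -1.15, so the red channels were again above the green ones.

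The developmental myosins Myh3 and Myh8 were among the 3 members with the widest gap between the arrays. Myh3, the embryonic myosin heavy chain, had normalized log2 intensities of 13.41 in male Rbpj-cKO, 12.16 in male control, 12.14 in female Rbpj-cKO and 13.99 in female control. That made it 2.37-fold higher in the male mutant and 3.62-fold lower in the female mutant (red over green 1.55 ± 0.43 SD, n = 2, adjusted p = 0.210, limma). A second Myh3 probe gave 1.20 and -1.83 on the log2 scale, close to the 1.25 and -1.85 of the first. Myh8, the perinatal myosin heavy chain, had 11.88, 10.50, 10.37 and 11.75 in the same order of channels. Its ratios of 1.38 and -1.38 were equal and opposite (red over green 1.38, unadjusted p = 5.27e-05, adjusted p = 0.205, limma). The Myh8 probes disagreed, because a second measured probe had 0.04 and 0.07 at intensities between 6.72 and 6.80 and a pair of others stayed below the filter. Of the adult fast myosins of the same cluster, Myh1, Myh2 and Myh4 were all below the filter.

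The light chains of myosin and its partner Mybph differed less. Myl4, the embryonic and atrial light chain, had 0.52 and -1.01, and Myl1, the alkali light chain of fast muscle, had 0.34 and -1.05. Mybph, a myosin-binding protein, had 0.55 and -1.05. These 3 genes were each about 2-fold lower in the female mutant and below 1.5-fold in the male pair. A second, dimmer Myl1 probe had 0.14 and -0.80. Mylpf, the regulatory light chain of fast muscle, had 0.0024 and -0.037 at intensities of 7.01, 7.01, 6.98 and 7.02. The Mylpf probe was dim, and a second one had 0 of 4 spots well above background in every channel.

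Genes of the Z-disc and of the scaffold that spans the sarcomere had the largest medians of any role, 0.85 and -1.53 over 3 genes. Ttn, the giant spring of the sarcomere, had normalized log2 intensities of 10.97 in male Rbpj-cKO, 9.83 in male control, 9.70 in female Rbpj-cKO and 11.53 in female control. It was 2.21-fold higher in the male mutant and 3.55-fold lower in the female one. The other measured Ttn probes had smaller ratios of the same signs, 0.79 and -0.9993 for 1 and 0.59 and -0.59 for the other. Actn2, which crosslinks actin at the Z-disc, had 9.45, 8.60, 8.53 and 10.05, with ratios of 0.85 and -1.53. Ldb3, a Z-disc adaptor, had 0.70 and -1.13, and its second probe 0.26 and -0.33.

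All 3 calcium release genes met the 1.5-fold rule on both arrays with opposite signs, each by its brightest probe. Cacna1s, the voltage sensor of the muscle membrane, had 9.45, 8.81, 8.98 and 10.06 in male Rbpj-cKO, male control, female Rbpj-cKO and female control. Its ratios were 0.64 and -1.07. A second, dimmer Cacna1s probe had 0.31 and -0.64, below 1.5-fold in the male pair. Ryr1, the release channel that Cacna1s opens, had 0.60 and -0.73, and Casq2, a calcium store protein, 0.85 and -1.09. In all 3 genes female Rbpj-cKO was above male control, although both were green. Ckm, which buffers ATP in mature fibres, was dim in these ureters at 6.85, 6.59, 6.55 and 6.9996, with ratios of 0.26 and -0.44.

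Of the 4 genes of the neuromuscular junction, 2 were at least 1.5-fold higher in the male mutant, Chrna1 and Chrnd. Chrna1, the acetylcholine receptor subunit that binds the transmitter, had normalized log2 intensities of 8.83 in male Rbpj-cKO, 8.18 in male control, 8.33 in female Rbpj-cKO and 9.79 in female control. A second, dimmer Chrna1 probe had ratios of 0.11 and -0.59, below 1.5-fold in the male pair. Chrnd, another subunit, had ratios of 0.65 and -0.81. Chrng, the subunit of the fetal receptor, had 0.12 and -0.29 and was barely detected, with 2 of 4 spots above background in either red channel and 0 in either green one. Its neighbour Chrnd lies 9.49 kb away on chromosome 1 (mm9, from probe start to probe start). Musk, the kinase that clusters the receptor, had 6.86, 6.69, 7.44 and 8.01, so that both female channels were above both male channels, unlike the other members. The Musk probe was dim in the male pair, with 3 of 4 spots above background in male Rbpj-cKO and 2 of 4 in male control. Its ratios were 0.16 and -0.57.

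Red over green was set against features of the probes. Across the 31 members, red over green on array 1 and array 2 had r = 0.759 and rho = 0.752. Both arrays shared the slide and the probes, while the genotypes in red and green were exchanged. Red over green against mean intensity had r = 0.455, and dim probes have their ratios drawn towards 0 by the offset of 50 that was added to every signal. The brighter 16 members had medians of 0.64 and -1.05 and the dimmer 15 had 0.45 and -0.81, so both showed the opposite signs. Against the GC content of the probe r was -0.034 over the members, whose median was 45% against 41.7% for all genes, and 0.235 over all genes. The median SD between the spots of a member's probe was 0.055 and 0.052. Several members are neighbours in the genome, Myh3 and Myh8 206 kb apart on chromosome 11, Tnni1 and Tnnt2 42.6 kb and Mybph and Myog 91.9 kb apart on chromosome 1, and Tnni2 and Tnnt3 68.2 kb apart on chromosome 7.

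Other genes of skeletal muscle had smaller ratios, mostly of the same signs. Of a list of 58 such genes 45 were measured, with medians of 0.22 and -0.55, and 36 of the 45 were higher in the male and lower in the female mutant. The 1.5-fold rule in opposite directions was met by 3 of them, Myh7 (slow myosin, 1.24 and -1.52), Cox6a2 (a muscle subunit of cytochrome oxidase, 0.94 and -1.16) and Cav3 (muscle caveolin, 0.93 and -0.99). That list and the members were chosen with earlier results of these data known, and the gap between them was not tested. Mdfi, which holds myogenic factors inactive, was lower in both mutant samples, at -1.28 and -1.24 (mean -1.26, adjusted p = 0.254, limma). Its intensity was 13.50 in male Rbpj-cKO, 14.78 in male control, 13.71 in female Rbpj-cKO and 14.95 in female control, with the mutants apart from the controls and no exchange of order between the arrays.

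Heart muscle shares several sarcomere genes with skeletal muscle. Of 12 cardiac markers 8 were measured, with medians of 0.30 and -0.19. Sln, a regulator of the calcium pump, had 0.39 and -1.54, Myl3, a slow and ventricular light chain, 0.68 and -0.61, and Myh6, the atrial myosin, 0.58 and -0.60. The defining cardiac factor Nkx2-5 had 0 of 4 spots above background in every channel, and Nppa, Nppb and Mybpc3 were below the filter, although Nppa had 4 of 4 spots above background in both male channels. Smooth muscle, the ureter's own muscle, had 14 of 15 genes measured, with medians of 0.06 and -0.17. Those with the widest gap were Des, which skeletal muscle also expresses (0.35 and -0.95), Acta2 (0.52 and -0.77) and Smtn (0.19 and -0.34), and 0 of the 14 met that rule. Myocd, the factor that drives smooth muscle genes, was instead lower in both mutants, at -0.67 and -1.04 (adjusted p = 0.651, limma), and was the list's 1 gene at least 1.5-fold different the same way.

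Tissue other than muscle also differed between the arrays, and its part in the result was not tested. All 14 erythroid genes were measured, with medians of 0.24 and -0.58, and 11 of them were higher in the male and lower in the female mutant. The globin genes Hbb-b1 (0.82 and -1.25), Hba-a1 (0.97 and -1.09) and Hbb-y (0.76 and -1.06) led that list. The median of female control minus male control was -0.51 for the erythroid list and 0.99 for the muscle members, a contrast between 2 channels that also differ in dye and array and that was not tested. Urothelial genes had medians of -0.011 and 0.024 over 12 genes, and ureteric mesenchyme genes 0.084 and -0.046 over 10.

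Tendon and cartilage genes, from tissue that adjoins skeletal muscle, had 6 of 8 measured and medians of -0.16 and -0.25. Tnmd, a marker of tendon cells, was below the filter but had 4 of 4 spots above background in female control and 0 in the other 3 channels, at 8.75 there and 6.26, 6.42 and 6.43 in male Rbpj-cKO, male control and female Rbpj-cKO. Thbs4, a tendon matrix gene, was 7.56, 7.97, 8.16 and 9.42 in male Rbpj-cKO, male control, female Rbpj-cKO and female control, again with female control highest. Scx, the tendon transcription factor, had 10.83, 11.45, 11.39 and 11.67, with male Rbpj-cKO the lowest. Of the 6 measured genes of the list, male Rbpj-cKO was above male control in 3 (Mkx, Acan and Sox5) and below it in 3 (Thbs4, Scx and Col2a1).

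**Figure D4:**
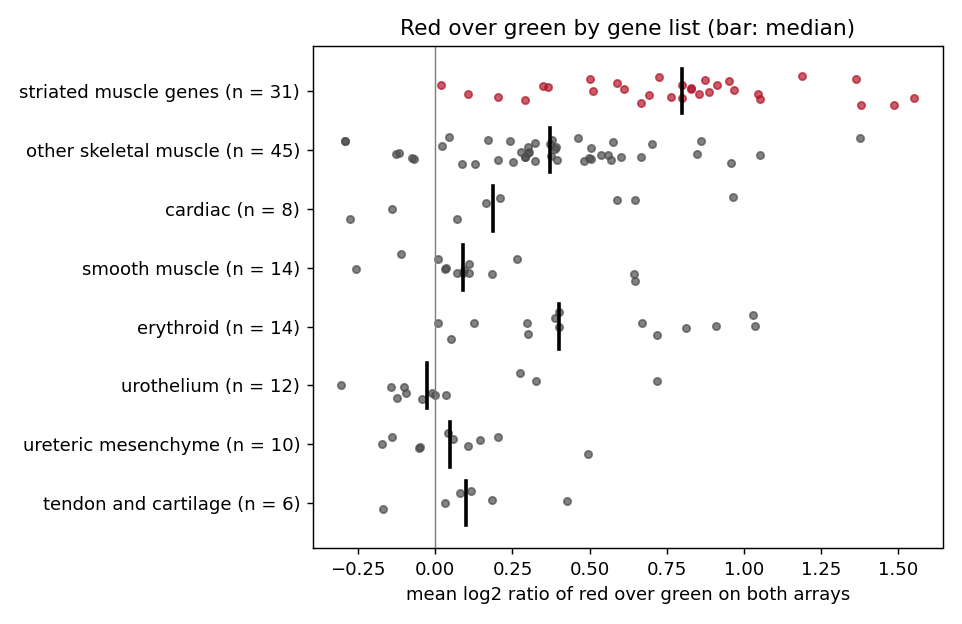
Red over green (log2, mean of both arrays, horizontal) for every measured gene of each list, 1 point a gene with vertical scatter only to separate points, and a bar at the list's median. The striated muscle members have a median of 0.80, other skeletal muscle genes 0.37, erythroid genes 0.40, ureteric mesenchyme genes 0.049 and urothelial genes -0.027.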

How the data were processed

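Each array's scanner file holds, per the file headers, the mean and local background median intensity of each spot in red and green, processed intensity, a log10 ratio of red over green and flags (other values of 0 or 1) for spots well above background, saturated or outlying. The submitters' processing notes name Agilent Feature Extraction 10.7.3.1, and the file headers give mm9 for probe coordinates. The arrays shared 1 slide and 1 scan. The authors also deposited a table of signed linear fold ratios of Rbpj-cKO over control, made by a method that no source used here gives, and it served as an alternative.

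Signals were corrected with normexp (offset 50), which together with loess within arrays (control spots at weight 0) gave log2 ratios, and Aquantile between arrays gave the channel levels, which stay open to dye bias within a sex (limma 3.58.1, R 4.3.3). Outlier spots were left out (3.57% and 3.9%), 0 spots were saturated, and the spots of a probe were averaged. Probes below the stated filter were dropped, leaving 26980, and the brightest probe stood for a gene. Replicate 2 was multiplied by -1 for Rbpj-cKO over control. Ratios were tested against 0 with lmFit and eBayes (two-sided, Benjamini-Hochberg over all genes, 1 residual degree of freedom). The variance was moderated over all genes, with 5.568 prior degrees of freedom for Rbpj-cKO over control and 2.333 for red over green. The procedure was tested on simulated data, where it called 100% of the genes changed 2-fold and 21 unchanged genes. That simulation had independent noise and no dye, sex or array effect, so its outcome does not carry over to these arrays. Of the probes, 28328 were named by RefSeq accession, 3400 by symbol, and 7701 kept the file's name. Named genes are all 32 members, up to 3 of each list with the widest gap between the arrays, Rbpj and Mdfi. The tendon, cardiac and adult myosin genes given beyond these were chosen after their values were seen. Upk1b, Upk2, Upk3a, Ptch1, Sox9, Myh11, Lmod1 and Myocd are also named and fall outside that rule. The members and lists were chosen with earlier results of these data known. Alternatives changed the background, normalization, filter, outliers, probe rule, moderation, source and sign.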

Additional observations from a re-analysis of the deposited data

Results flagged for a closer look

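The ratio of Rbpj-cKO over control ran opposite ways in the male and the female pair, at 1.5-fold or more on each array, for 16 striated muscle genes. That holds for each gene's brightest probe. Each difference is the male log2 ratio less the female one. It rests on 1 array per sex, with the dyes exchanged between those arrays. For a single gene it is 2 times the mean red over green, whose test by limma called 0 of the 16 (adjusted p from 0.205 to 0.210). The median difference over the 31 measured members was 1.60, which was not tested, against -0.0022 for all genes. Filament and scaffold genes had 3.102 for Myh3, 2.98 for Ttn, 2.76 for Myh8, 2.72 for Acta1, 2.38 for Actn2 and 2.09 for Neb. Receptor and calcium genes had 2.10 for Chrna1, 1.94 for Casq2, 1.71 for Cacna1s, 1.45 for Chrnd and 1.33 for Ryr1. The troponins had 1.90 for Tnnt2, 1.66 for Tnni2, 1.66 for Tnnc2 and 1.60 for Tnnt3, and the adaptor Ldb3 had 1.83.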

How the results depend on the processing

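With Agilent's processed signals limma called 1 gene for Rbpj-cKO over control, and with an intensity trend and robust moderation 5, none of them members, where it otherwise called 0 (unadjusted counts 486 and 391). The members' median on replicate 1 (0.60) was 0.73 with processed signals, 0.68 with median centring, 0.50 with the mean over probes, 0.74 with the authors' table and 0.69 with an offset of 1. On replicate 2 (-1.01) it was -1.17, -1.20, -0.91 and -1.13 in the first 4 of these. The difference (1.60) was 1.77, 1.93, 1.399 and 1.73, and 1.69 with all 4 spots above background. With replicate 2 not turned, the median on replicate 2 was 1.01, the difference -0.40, and 0 members were 1.5-fold opposite. That setting only reverses the sign of replicate 2, so its values restate the ratios already given. The mean of red over green reversed for Mylpf (-0.0038 with processed signals, -0.081 with median centring) and Pax7 (-0.018 with median centring, and from -0.095 to 0.31 with either replicate left out). With either replicate left out the members' median was -1.01 to 0.60, with no test. Median centring moved the median of all genes to 0.12 and -0.14. The offset of 1 and leaving out probes with GT runs were chosen after seeing the data. Over single members, 310 ratios on 1 array moved by less than the spot SD and 176 by more. The 310 include the changed filters, which only select genes and left every member's ratio as it was. Averaging over probes likewise could not move the 20 members with 1 probe. The 310 therefore overstate how stable the ratios were. The cause of the shifts that did occur was not tested. The ratios already pair both genotypes on each array, so no further replicate block could be fitted. Dim probes (Ckm, Mylpf, Chrng, Myf6, Pax7, and Musk in the male pair) lie near background, which limits their ratios.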

Other observations

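Upk3b, which the mesothelium expresses as well as the urothelium, was 8.22 in male Rbpj-cKO, 6.94 in male control, 7.49 in female Rbpj-cKO and 7.65 in female control, so that male control stood apart from the other 3 channels. Tbx20, a cardiac and mesenchymal factor, had 0 of 4 spots above background in female control and 4 of 4 in the other channels. Both genes were chosen after their values were seen.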
